A study of Mus musculus with 36 samples.

Results

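The genes examined here code for 8 proteins on or beside the route from mitochondrial citrate to palmitate: Slc25a1, Acly, Acss2, Acaca, Acacb, Fasn, Me1 and Aacs. They were taken as a named list, and every probe on the array that is not a control and that belongs to one of these genes was used. The list is covered by 18 of 41174 probes, and all 18 passed the filter on low signal, as did 24706 probes of 16497 genes in all. Of the 18 probes, 16 carry the gene's current name in the deposited files, and the 2 probes of Me1 are filed under its older name Mod1 and were found through its accession and synonym.

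RNA came from epididymal white adipose tissue, visceral fat that lies along the epididymis. The donors were 36 male C57BL/6J mice, all adult, and each array carried 1 animal. All mice first ate a purified high-fat diet (30% of energy as fat) freely for 3 weeks. The t0 group was killed at that point, the HF-AL group kept eating the diet freely for 12 more weeks, and the HF-DR group received it for those 12 weeks on a restricted basis, given by the labels as 70 energy percent, with vitamins and minerals added so that their intake matched. Each group had 12 mice, the labels name no genetic change, all shared the high-fat diet, and no low-fat group was analysed here. RNA of each mouse, labelled with the red dye Cy5, was hybridised against a pool of the RNA of all samples labelled with the green dye Cy3, so each value below is a log2 ratio of 1 animal to that pool.

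Fatty acid synthesis takes place in the cytosol, whereas acetyl-CoA from glucose is made in mitochondria, so the carbon leaves the mitochondrion as citrate through the carrier Slc25a1 and is split to acetyl-CoA again by ATP citrate lyase, Acly. Acetyl-CoA carboxylase makes malonyl-CoA, fatty acid synthase strings malonyl-CoA units into palmitate, and malic enzyme is one of the sources of the NADPH this consumes. The sterol-responsive factor SREBP-1 and the carbohydrate-responsive factor ChREBP are the best known activators of these genes in liver and fat.

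The mice on restricted feeding had more of all 8 transcripts than either of the groups that ate freely. Against HF-AL the differences ran from 1.74 (Aacs) to 3.32 (Acly) on the log2 scale, which is 3.35-fold to 9.96-fold. Between HF-AL and t0 none of the 8 genes passed the test, and the estimates lay between -0.07 and 0.18. On every array where a gene was measured its HF-DR value lay above all 24 values of the other groups or, where a spot was left out, above all that were measured.

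Because the 8 genes moved together, the stretches around their start sites were searched for a few short promoter motifs and no others. RefSeq windows of 300 bases on GRCm38.p6, from 250 before to 50 after a start, were found for all 8 genes (9 windows, Me1 having 2). They are the starts that the RefSeq table lists, and which start each gene uses in this tissue was not examined. The window listed for Acaca, which held none of the motifs below, may belong to an internal start of the gene. Both strands were searched for a sterol regulatory element (TCACNCCAC), an E-box (CACGTG), the box with the letters CCAAT and the GC box (GGGCGG), and no match of one motif overlapped a match of another in these windows. The 3 windows below are shown because they hold the single E-box, the most CCAAT matches, and CCAAT and GC boxes in the gene of the acetate route. They are those of the citrate carrier on chr16:17928170-17928469 (minus strand), of fatty acid synthase on chr11:120824498-120824797 (minus strand) and of the acetyl-CoA synthetase Acss2 on chr2:155517793-155518092 (plus strand), printed 5′ to 3′ along the gene with capitals for the E-box and for CCAAT in either orientation.
Slc25a1: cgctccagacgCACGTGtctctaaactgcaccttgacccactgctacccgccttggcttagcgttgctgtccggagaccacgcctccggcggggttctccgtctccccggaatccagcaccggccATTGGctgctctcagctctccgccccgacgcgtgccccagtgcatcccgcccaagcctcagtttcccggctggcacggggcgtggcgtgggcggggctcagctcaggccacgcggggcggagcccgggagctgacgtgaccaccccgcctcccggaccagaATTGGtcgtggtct
Fasn: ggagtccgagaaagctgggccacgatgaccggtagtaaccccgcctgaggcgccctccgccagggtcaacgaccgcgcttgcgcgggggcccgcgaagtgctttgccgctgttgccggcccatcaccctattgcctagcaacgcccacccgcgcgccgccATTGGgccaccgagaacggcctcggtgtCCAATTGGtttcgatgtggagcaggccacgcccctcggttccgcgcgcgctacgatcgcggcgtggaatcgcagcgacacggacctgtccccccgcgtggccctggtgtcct
Acss2: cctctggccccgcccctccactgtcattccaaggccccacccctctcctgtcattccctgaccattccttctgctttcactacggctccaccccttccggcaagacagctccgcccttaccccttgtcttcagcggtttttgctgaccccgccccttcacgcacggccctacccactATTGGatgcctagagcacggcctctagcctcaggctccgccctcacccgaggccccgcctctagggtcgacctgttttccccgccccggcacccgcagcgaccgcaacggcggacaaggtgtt
The Slc25a1 window was the only member window with the E-box, at -239 from the start (its first base), and 7.15% of all 32851 windows hold one. Fasn has 3 CCAAT matches, a pair of which, one on each strand, share letters. The CCAAT box was found in windows of 6 of the 8 genes, against 37.4% of all windows (for Me1 only in its second window), and the GC box in windows of 4 genes, against 35.7%. No member window held the sterol element in this spelling, which occurs in 1.24% of all windows. These matches describe letters only: 9 windows are too few to set against the background shares, and no binding was measured.

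The arrays differed in signal, with 45.2% to 86.6% of probes well above background and a median Cy5 signal from 102 to 372. HF-DR 8 and 9 stood apart: the median log2 ratio of 7 genes of the seminal vesicle, a gland that lies close to this depot, was 5.99 and 5.19 there, -0.95 on HF-DR 7 and between -5.47 and -3.90 on the other HF-DR arrays. On the same 2 arrays the median of 14 adipocyte markers was -1.29 and -1.09, the lowest of all, against a group median of -0.23. Transcripts of the epididymis had their highest median ratio over 4 genes on HF-AL 7 and 9 (0.58 and 0.54, with 2 of the 4 above background), followed by t0 11 (0.19, 2 above background), t0 2 (0.15, all 4 above background) and HF-AL 5 (0.10, 1 above background). The seminal vesicle genes of t0 6 were at -2.78, against a t0 median of -5.26. An alternative, called without tract arrays below, leaves out HF-DR 7, 8 and 9 and HF-AL 5, 7 and 9, which earlier work on these data had marked, and keeps all t0 arrays. Counts, pairs and correlations that differ under it are given both ways. Slides are a batch that the files record: 21 slides held the arrays, and only 3 slides carried both HF-AL and HF-DR.

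**Figure D1:**
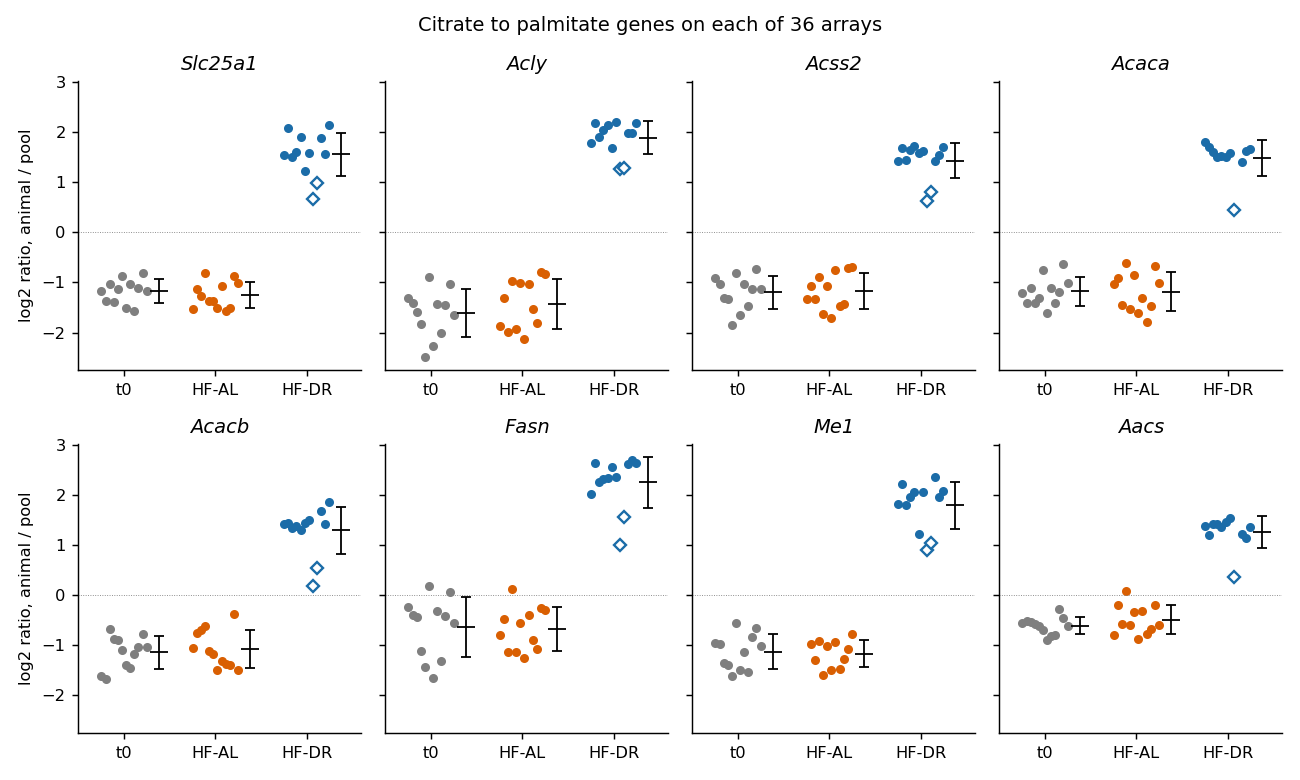
Log2 ratio of each animal to the pool (vertical axis) for the 8 genes on all arrays, by group; bars to the right of each group are the mean and SD over the animals measured, and open diamonds are HF-DR 8 and 9. In each panel the HF-DR points lie above those of t0 and HF-AL, and HF-DR 8 is the lowest HF-DR point of all 8 genes.

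The export step was measured by 1 probe of Slc25a1, the carrier that exchanges mitochondrial citrate for malate (chr16:17839073-17839132 on mm8, minus strand). Its log2 ratio ran from -1.58 through a median of -1.14 to -0.81 at t0, from -1.57 through -1.31 to -0.82 in HF-AL and from 0.66 through 1.57 to 2.14 in HF-DR. The lowest HF-DR array, HF-DR 8, was still 1.48 above the highest HF-AL array. In 1 limma fit over all genes the difference between HF-DR and HF-AL was 2.81 ± 0.13 (SE, n = 12 per group), or 6.99-fold, with an adjusted p of 6.66e-20, and between HF-DR and t0 it was 2.73 ± 0.13 with an adjusted p of 1.13e-19.

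Acly, which splits cytosolic citrate into acetyl-CoA and oxaloacetate, had the largest difference of the 8 genes on the brightest probes. With the mean over the probes of a gene it was 2.49, below Me1 (2.88), Slc25a1 (2.81) and Fasn (2.75). On its main probe (chr11:100293293-100293351, minus strand) the log2 ratio spanned -2.49, -1.52 and -0.88 (lowest, median, highest) at t0, -2.12, -1.41 and -0.80 in HF-AL, and 1.26, 1.98 and 2.20 in HF-DR. The free-feeding groups overlapped over most of their range, and 2.05 log2 units separated the HF-DR arrays from the highest HF-AL array. HF-DR exceeded HF-AL by 3.32 ± 0.17 (9.96-fold, limma adjusted p = 2.48e-18) and t0 by 3.50 ± 0.17 (11.3-fold, adjusted p = 4.68e-19). Only 8 of the 16497 genes tested had a larger rise against HF-AL. The second Acly probe is named after a cDNA clone (AK043466) and lies towards the 5′ end on the same strand (chr11:100311569-100311628). It was above background on 3 t0 arrays, 3 HF-AL arrays and all 12 HF-DR arrays, and its difference was 1.66 ± 0.11.

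Acss2 makes acetyl-CoA in the cytosol from acetate, by a route that does not pass through citrate. Its main probe (chr2:155253831-155253893, plus strand) gave -1.84, -1.13 and -0.72 at t0, -1.71, -1.20 and -0.68 in HF-AL and 0.62, 1.56 and 1.73 in HF-DR. No HF-DR value came within 1.31 of the HF-AL range. The difference was 2.61 ± 0.14 against HF-AL (6.09-fold, limma adjusted p = 4.04e-18) and 2.63 ± 0.14 against t0 (adjusted p = 2.68e-18).

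Aacs, which activates acetoacetate, a ketone body, to a CoA ester in the cytosol, had the smallest rise on the brightest probes, whereas with the mean over probes that of Acss2 was smaller (1.68 against 1.74). Its ratio was -0.89, -0.60 and -0.28 at t0, -0.87, -0.59 and 0.08 in HF-AL and 0.36, 1.35 and 1.53 in HF-DR, where the spot of HF-DR 9 was an outlier by the scanner software and was left out (n = 11). HF-DR 8 lay only 0.28 above HF-AL 4, the narrowest gap of the 8 genes, and the other 10 HF-DR arrays were at 1.13 or more. The difference was 1.74 ± 0.11 against HF-AL (3.35-fold, limma adjusted p = 4.74e-16) and 1.87 ± 0.11 against t0 (adjusted p = 6.38e-17).

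The carboxylation of acetyl-CoA to malonyl-CoA is done by a pair of enzymes from separate genes. Acaca codes for the cytosolic form that feeds fatty acid synthesis, and Acacb for the form at the mitochondrial outer membrane, whose malonyl-CoA is known for holding back fatty acid import into mitochondria. Acaca (chr11:84217052-84217111, plus strand) stood at -1.61, -1.19 and -0.62 at t0, -1.79, -1.17 and -0.61 in HF-AL and 0.44, 1.57 and 1.80 in HF-DR, again without the spot of HF-DR 9. Acacb (chr5:114511625-114511685, plus strand) stood at -1.67, -1.06 and -0.68, at -1.49, -1.14 and -0.37, and at 0.18, 1.42 and 1.85 in the same order of groups. Both genes separated HF-DR from the other groups in full, by 1.05 for Acaca and 0.55 for Acacb against HF-AL.

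Against HF-AL the rise was 2.67 ± 0.14 for Acaca (6.37-fold, limma adjusted p = 4.92e-18) and 2.36 ± 0.15 for Acacb (5.14-fold, adjusted p = 1.32e-15). Against t0 it was 2.66 ± 0.14 and 2.43 ± 0.15, with adjusted p of 4.93e-18 and 5.50e-16. So the carboxylase gene of the synthetic route and that of the mitochondrial membrane rose side by side.

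Fasn is the multifunctional synthase that completes palmitate. Its main probe (chr11:120623236-120623295, minus strand) read -1.65, -0.43 and 0.18 at t0, -1.27, -0.67 and 0.11 in HF-AL and 1.01, 2.35 and 2.70 in HF-DR. The 2 free-feeding groups crossed, with t0 values on both sides of those of HF-AL, and HF-DR lay apart by 0.90 from HF-AL and by 0.83 from t0. The fit gave 2.93 ± 0.20 against HF-AL (7.62-fold, limma adjusted p = 4.84e-15) and 2.89 ± 0.20 against t0 (adjusted p = 6.86e-15).

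This Fasn probe reached the ceiling of the scanner in Cy5 on 6 of the 12 HF-DR arrays and on no array of the other groups, nor in the Cy3 pool. A saturated spot gives a signal no higher than the ceiling, so the ratios of those 6 arrays are lower limits. They ran from 2.25 through a median of 2.48 to 2.64, against 1.01, 2.19 and 2.70 on the 6 HF-DR arrays without saturation, which include HF-DR 8 and 9. The second Fasn probe (chr11:120622442-120622501) was saturated on no HF-DR array and gave -1.78, -0.96 and -0.26 at t0, -1.72, -1.12 and -0.43 in HF-AL and 0.70, 1.62 and 2.08 in HF-DR. Its difference between HF-DR and HF-AL was 2.63 ± 0.18 with a limma adjusted p of 6.72e-15. Either probe therefore separated the groups, and the size for the main probe depends on the scale used: quantile-normalised Cy5 levels gave 1.52 and the series matrix gave 3.30.

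Me1, cytosolic malic enzyme, turns malate to pyruvate and yields NADPH. It was at -1.62, -1.08 and -0.55 at t0, at -1.58, -1.07 and -0.77 in HF-AL (n = 11, 1 spot left out) and at 0.91, 1.95 and 2.35 in HF-DR (chr9:86378398-86378458, minus strand). The lowest HF-DR array exceeded the highest HF-AL array by 1.67. The rise was 2.95 ± 0.15 (7.75-fold, limma adjusted p = 3.11e-18) against HF-AL and 2.92 ± 0.15 (adjusted p = 2.12e-18) against t0. The second probe, designed on another Me1 mRNA record (M29546, chr9:86383141-86383200), gave 2.81 ± 0.10.

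Read against all genes, 8 of 8 members were called higher in HF-DR than in HF-AL (limma, adjusted p under 0.05), where 28.8% of the 16497 genes tested were called higher and 35.9% lower. All 8 also had groups that did not overlap, which held for 6.27% of all genes, and all 8 rose by at least 2-fold, which held for 2.96%. The median difference over the 8 genes was 2.74, beside -0.04 over all genes. Against t0 the count was again 8 of 8, with 28.8% of all genes called higher, 7.54% not overlapping, and medians of 2.70 and -0.01. Both comparisons use the same HF-DR arrays, so they are not separate evidence.

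**Figure D2:**
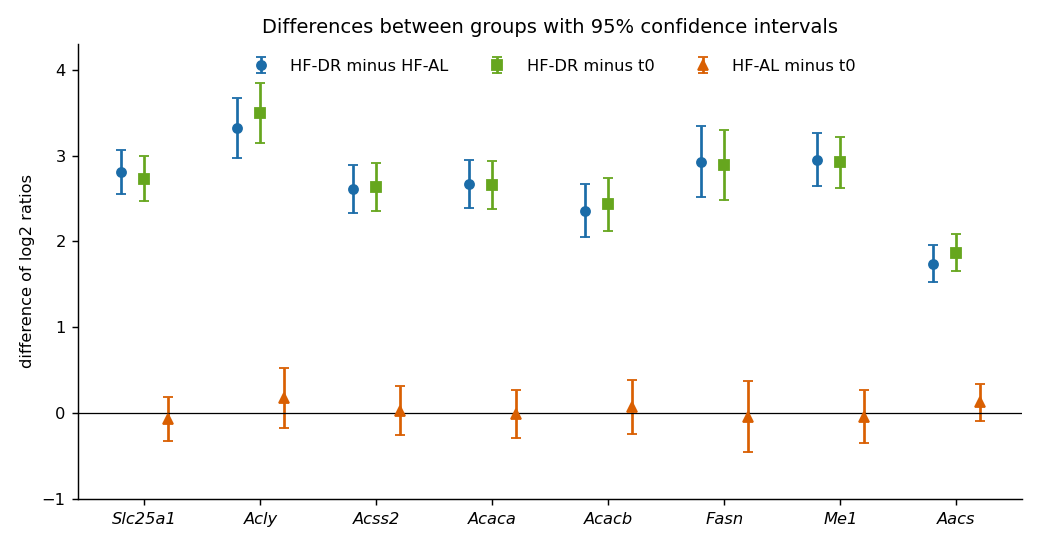
Difference of mean log2 ratios (vertical axis) for each gene in the 3 comparisons, from the limma fit over all genes; bars are 95% confidence intervals. The intervals of both comparisons with HF-DR start at 1.53 or higher, and those of HF-AL against t0 all include 0.

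In bulk tissue, more transcript per cell and more of the cells that make it cannot be told apart. Of 14 adipocyte markers 0 were higher and 9 lower in HF-DR than in HF-AL, with a median difference of -0.53, while the 8 genes rose. Without tract arrays 2 markers were higher and 8 lower, with a median of -0.45. Fabp4 and Cfd, bright adipocyte genes, differed by 0.04 ± 0.14 and -0.08 ± 0.17 (adjusted p 0.806 and 0.692), and the lipid droplet protein gene Cidec fell by 0.54. Markers of macrophages were lower for 11 of 12 genes, and for 10 without tract arrays (median -0.65, with Lyz2 at -1.37, Clec10a at -1.19 and Cd163 at -0.93) and markers of fibroblasts and mesothelium for 9 of 10 (median -1.39, with Gsn at -2.12 and the collagen genes Col3a1 and Col1a2 at -2.10 and -1.82). In a mixed list of muscle, blood and brown adipocyte markers, 4 of 5 measured genes were higher. The largest rises were those of Cidea (3.26 ± 0.18) and Cox8b (2.83 ± 0.18), both known from brown fat, and the smallest was that of the haemoglobin gene Hba-a1 (0.52 ± 0.21). Without tract arrays 3 were higher and 1 lower. The defining gene Ucp1 did not pass the filter on low signal. Seminal vesicle genes were higher for 5 of 7 (median 2.19, with Svs4 at 2.50 ± 1.06, adjusted p = 0.0376, and Svs5 and Svs6 both at 2.19, adjusted p 0.0636 and 0.0528), and without tract arrays for 1 of 7 (median 0.27). The part of these shifts in the values of the 8 genes was not tested.

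Within the HF-DR group the same 2 arrays held the low end. HF-DR 8 was the lowest array for all 8 genes, and HF-DR 9 the second lowest for the 6 genes measured on it. For Acss2 they stood at 0.62 and 0.80, against 1.42 to 1.73 on the other 10 arrays, and for Acacb at 0.18 and 0.54, against 1.31 to 1.85. Without them the SD within HF-DR fell to 0.12 for Acss2 and 0.17 for Acacb, from 0.36 and 0.47. These are the arrays with seminal vesicle transcripts and the lowest adipocyte markers. With both left out, all 8 genes remained called in both comparisons with HF-DR.

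The slides gave the same direction. On each of the 3 slides that held an HF-AL and an HF-DR array all 8 genes were higher in HF-DR, by 2.72 to 3.60 for Acly, by 2.54 to 3.10 for Fasn and by 1.38 to 2.05 for Aacs. On the 6 slides shared by HF-DR and t0 all 8 genes were higher in HF-DR as well, by 2.78 to 4.67 for Acly and by 1.81 to 2.11 for Aacs. Of the HF-DR arrays, 6 (HF-DR 7 to 12) lay on slides without an array of another group.

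The comparison of HF-AL with t0 covers 12 more weeks of free feeding and of age. None of the 8 genes was called (0 of 8 with limma at adjusted p under 0.05, and 0.697% of all genes, 115 in number, were called in either direction). At an unadjusted p under 0.05 there were 2221 such genes and 0 of the 8. The adjusted p of the members ran from 0.644 (Aacs, 0.13 ± 0.11) to 0.984 (Acaca, -0.01 ± 0.14). The 95% intervals show what the arrays could still miss: -0.17 to 0.53 for Acly, -0.45 to 0.37 for Fasn, and -0.33 to 0.19 for Slc25a1. A difference of 1 log2 unit, which each member exceeded under restriction, lies outside all 8 intervals.

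Several probes of one gene can show whether a difference rests on 1 probe. All 18 probes were higher in HF-DR than in HF-AL, by 0.87 to 3.32, with limma adjusted p of at most 2.51e-12, and none was called between HF-AL and t0. The probes of Acly and Acss2 named after cDNA clones passed the filter on low signal only through HF-DR. That filter favoured a higher HF-DR value for them, so their direction adds no support. The Acss2 probes on its RefSeq record gave 2.61 and 2.10, whereas those named after cDNA clones (AK003738 and AK085932) and lying towards the 5′ end (chr2:155210248-155210307 and chr2:155216369-155216428), gave 1.14 ± 0.10 and 0.87 ± 0.08. AK003738 was above background on 4 t0 arrays, 7 HF-AL arrays and 12 HF-DR arrays, and AK085932 on 1, 0 and 10. The 4 probes of Acaca gave 2.03 to 2.67, and Acacb's second probe gave 1.52 ± 0.12.

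One more probe lies in the Acaca region (chr11:83989740-84011634) and is filed under a transcript name, ENSMUST00000103201, with a description as acetyl-Coenzyme A carboxylase alpha. It lies upstream of the other Acaca probes and is not counted among the 18. It read -0.96, -0.82 and -0.53 at t0, -1.19, -0.86 and -0.35 in HF-AL and 0.67, 1.55 and 1.71 in HF-DR, a difference of 2.25 ± 0.10. The 5′ and 3′ parts of Acaca thus differed between the groups in the same direction.

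Probe differences followed signal and the background correction. The 7 probes with a mean log2 intensity under 10 gave 0.87 to 2.55, and the 11 brighter ones gave 1.74 to 3.32. With the scanner software's own processed signals the dim probes gave 2.25 to 3.44 and the bright ones 1.72 to 3.34, and the Acss2 clone probe AK085932 moved from 0.87 to 3.44. The correction used here adds 50 to each channel, which shrinks ratios of dim spots. Sizes of the dim probes are therefore not comparable with those of the bright ones.

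**Figure D3:**
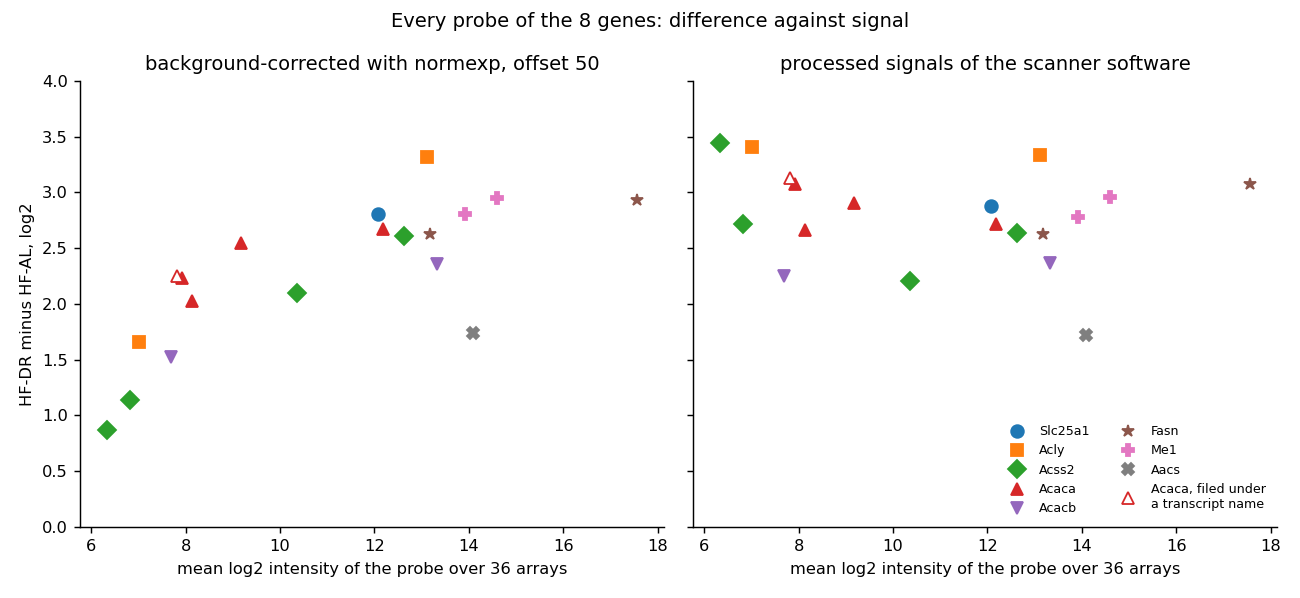
Difference between HF-DR and HF-AL (vertical axis, log2) of every probe of the 8 genes against its mean log2 intensity over all arrays, with the correction used here (left) and with the scanner software's processed signals (right). On the left the dimmest probe lies at 0.87, and on the right at 3.44.

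The ratio between a pair of genes shows whether they rose by unequal factors. Of 4 pairs fixed for this, Acss2 over Acly fell by 0.71 ± 0.07 on the log2 scale from HF-AL to HF-DR, and all 12 HF-DR arrays lay below all HF-AL arrays (two-sided permutation test over arrays, adjusted p = 4e-05 over the 4 pairs). The ratio of Acly to Slc25a1 rose by 0.51 ± 0.11 (permutation test, adjusted p = 0.00029), with 6 of 12 HF-DR arrays above all HF-AL arrays. Aacs over Acss2 fell by 0.92 ± 0.09 (permutation test, adjusted p = 4e-05), in 11 of 11 HF-DR arrays measured.

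The ratio of Acacb to Acaca fell by 0.24 ± 0.11 (permutation test, adjusted p = 0.05), with no HF-DR array outside the HF-AL range, and without tract arrays it fell by 0.17 (adjusted p = 0.26). These pairs rest on the brightest probe of each gene. With the mean over all probes of a gene the ratio of Acly to Slc25a1 read -0.32, and that of Aacs to Acss2 read 0.01. Only the ratio of Acss2 to Acly kept its direction and its call under every alternative run for it.

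Among mice of one group, the 8 genes varied together to different degrees. Over the 28 pairs within a group of 12 mice the median Pearson r was 0.62 at t0, 0.76 in HF-AL and 0.84 in HF-DR, and 24, 28 and 28 pairs were positive. Of 84 correlations in all, 14 at t0, 22 in HF-AL and 15 in HF-DR passed an adjusted permutation p of 0.05 for r, and 11, 19 and 9 did so for Spearman's rho. Arrays share their labelling and normalization, which can move genes together, and slides held too few arrays of a group for values within a slide. The brightest probe stood for each gene, and probes of a gene did not always vary together. Both Me1 probes had r of 0.85 at t0, 0.75 in HF-AL and 0.08 in HF-DR. For Acly, whose second probe is dim, r was -0.07, 0.05 and 0.68, and for Fasn 0.94, 0.92 and 0.93.

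At t0 Acly, Acss2, Fasn and Me1 formed the tightest set. Acly against Fasn had r = 0.97 and rho = 0.99 (permutation p = 1e-05 for both, the smallest the resampling can give, and adjusted p = 0.00028 and 0.00042), and r was 0.97 without the 2 arrays farthest from the median. Acly against Acss2 had r = 0.98 and rho = 0.97 (permutation test, adjusted p = 0.00028 and 0.00056), and r was 0.94 without the 2 farthest arrays. Acacb stood outside this set, with r of -0.07 to Acly, -0.02 to Fasn and 0.39 to Acaca (permutation test, adjusted p of 0.83, 0.95 and 0.25). Whether these r differ from those of the tight set was not tested.

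In HF-AL the same genes again varied together, with r = 0.92 and rho = 0.94 between Acly and Fasn (permutation test, adjusted p = 0.0009 and 0.00063), and r was 0.89 without the 2 farthest arrays. HF-AL 4, 11 and 12 held the highest value of every one of the 8 genes, and HF-AL 7, one of the arrays with epididymal transcripts, the lowest value of 4. Acacb against Me1 had the lowest r, 0.22. Without HF-AL 5, 7 and 9, r passed for 11 of the 28 pairs and the median r was 0.67.

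In HF-DR the correlations rested on the tract arrays. Without HF-DR 7, 8 and 9 the median r dropped to 0.12, 19 of 28 pairs were positive and 3 passed. Those that passed were Slc25a1 with Acly (r = 0.90) and Me1 with Slc25a1 (0.83) and with Acly (0.79). Among these 9 mice most pairs thus showed no detectable relation at this number of arrays. At t0, where no array was left out, 12 of the 28 pairs passed after adjustment over that run.

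**Figure D4:**
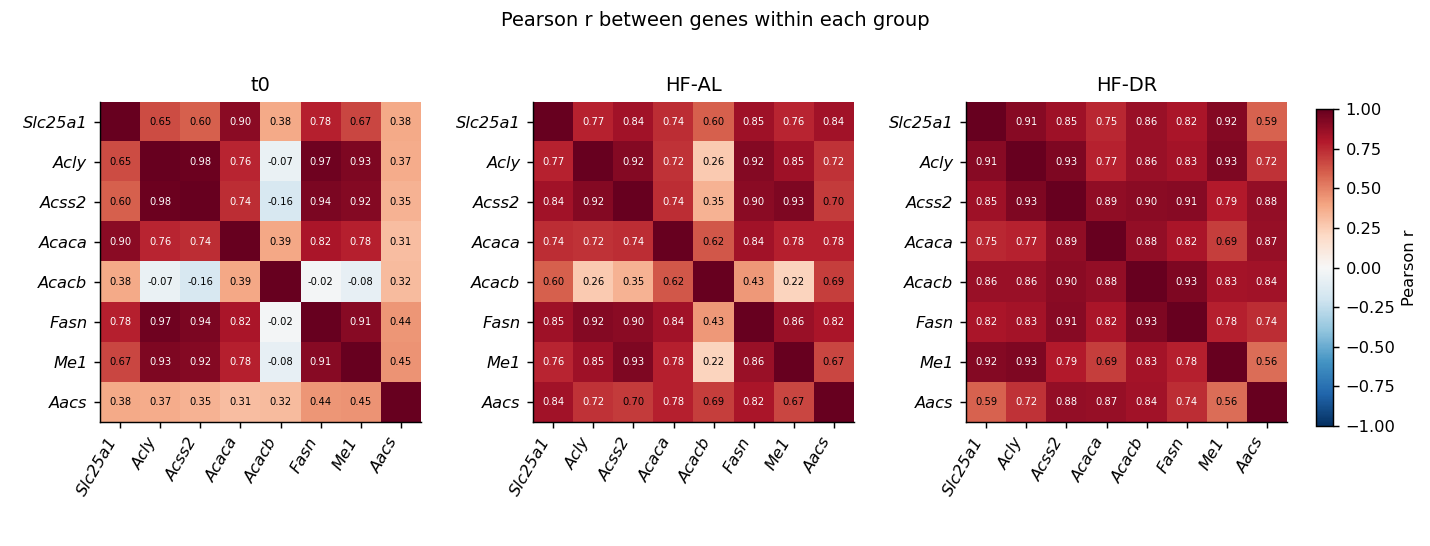
Pearson r between the log2 ratios of each pair of genes over the mice of 1 group, for t0, HF-AL and HF-DR (colour from -1 to 1, with the value in each cell; the diagonal is a gene with itself). Acacb is near 0 with Acly, Acss2, Fasn and Me1 at t0, and all 28 pairs are positive in HF-AL and HF-DR.

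Genes outside the list whose values within groups were most like the mean of the 8 were named by their mean r over the 3 groups of 12. They were Tkt, the transketolase of the pentose phosphate pathway (mean r 0.86, rising by 2.50 in HF-DR), Cyc1, cytochrome c1 of respiratory complex III (0.84, rising by 0.91), Gbe1, the glycogen branching enzyme (0.84, rising by 1.60), and Pdhb, a pyruvate dehydrogenase subunit (0.83, rising by 1.88). The fifth was the Acaca probe filed under a transcript name (0.83). Without tract arrays the mean r was 0.87 for Cyc1, 0.85 for Tkt, 0.72 for Pdhb, 0.69 for Gbe1 and 0.65 for that probe, and the first 2 were still the most like the members while the others ranked 8, 21 and 32 among genes outside the list. Of the members themselves, Fasn (0.94), Acss2 (0.92), Acly (0.91) and Acaca (0.91) were most like that mean, which they are part of, and Acacb least (0.62).

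The genes that supply the route and use its product shifted in the same comparison, and each list is given by its counts beside the background of 28.8% higher and 35.9% lower. Of 20 measured genes of mitochondrial citrate and acetyl-CoA supply, 17 were higher and 1 lower, with a median of 1.04. The rises include the pyruvate carrier subunit Mpc1 (2.48 ± 0.15) and the pyruvate dehydrogenase subunits Pdha1 (1.96 ± 0.10) and Dlat (1.73 ± 0.10), and also Pdk1 (2.78 ± 0.11), a kinase that inhibits pyruvate dehydrogenase. Pdk3, another such kinase, fell by 0.59.

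For NADPH, 10 of 13 genes were higher and 2 lower (median 0.64). The pentose phosphate genes Tkt (2.50 ± 0.17), Rpia (1.81 ± 0.11), Taldo1 (1.22 ± 0.09) and Pgls (0.69 ± 0.06) rose, all with smaller differences than Me1, and the mitochondrial isocitrate dehydrogenase Idh2 fell by 0.47 (limma, adjusted p at most 3.9e-07 for all 5). Of these genes only Idh2 codes for an enzyme that itself makes NADPH. Among other genes of such enzymes, Pgd rose by 1.26 ± 0.11, G6pdx by 0.97 ± 0.10 and Idh1 by 0.55 ± 0.11. Nnt fell by 0.24, and Me3 was not called. Transcripts of acetate and ketone body enzymes split: 7 of 13 rose and 3 fell (median 0.40). The cytosolic thiolase Acat2 rose by 1.37 ± 0.11 and Acat3 by 1.25 ± 0.10. Oxct1, which starts ketone body oxidation in mitochondria, fell by 1.18, whereas the cytosolic Aacs rose.

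Of 23 genes listed for the elongation, desaturation and use of palmitate and other fatty acids, 20 were higher and 0 lower (median 1.33). The elongase Elovl6, which acts on palmitate itself, rose by 5.20 ± 0.15, more than any of the 8 genes. Another elongase, Elovl3, rose by 4.50 ± 0.13. The acyl-CoA synthetase gene Acsl3 rose by 1.97 ± 0.11 and the acyltransferase gene Agpat2 by 2.27 ± 0.13. Of 9 genes listed for mitochondrial fatty acid synthesis, a separate route that makes the lipoic acid precursor, 6 rose, with a median of 0.42. Over all arrays the synthesis genes Oxsm, Mecr and Acsf3 were not called (-0.08, 0.04 and 0.07). Lipt1 rose by 0.84 ± 0.09, and Ndufab1, Lipt2 and Mcat rose by 0.73, 0.67 and 0.53. The probes of Lipt1 and Lipt2 are dim (mean log2 intensity under 10), as are those of Elovl3, Acsl3, Acat2, Acat3 and Pdk3. The sizes of all these are therefore not comparable with those of the 8 genes.

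Regulators of the route were 12 higher and 4 lower of 21 (median 0.37). Insig1, an SREBP target and retention protein, rose by 3.11 ± 0.17. Srebf1, which codes for SREBP-1, rose by 0.64 ± 0.12, whereas Srebf2 and Insig2 fell by 0.29 and 0.34. Mlxipl, which codes for ChREBP, and its partner Mlx rose by 1.88 ± 0.12 and 1.86 ± 0.09. Thrsp, known as Spot 14, rose by 2.37 ± 0.15. Prkaa1, a catalytic subunit of AMPK, the kinase that inhibits acetyl-CoA carboxylase, fell by 0.81. The gene of the other catalytic subunit, Prkaa2, rose by 0.71 ± 0.09. Of the other AMPK subunit genes listed, Prkab2 fell by 0.62, whereas Prkab1 rose by 0.44 and Prkag1 by 0.12. The probes of Prkaa2 and Prkab1 are dim. Between HF-AL and t0 no gene of these 6 lists was called in either direction. Without tract arrays the counts of higher and lower genes were 17 and 2 for citrate and acetyl-CoA supply, 10 and 2 for NADPH, 8 and 4 for acetate and ketone bodies, 21 and 0 for the use of palmitate, 7 and 0 for mitochondrial synthesis, and 13 and 4 for the regulators.

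**Figure D5:**
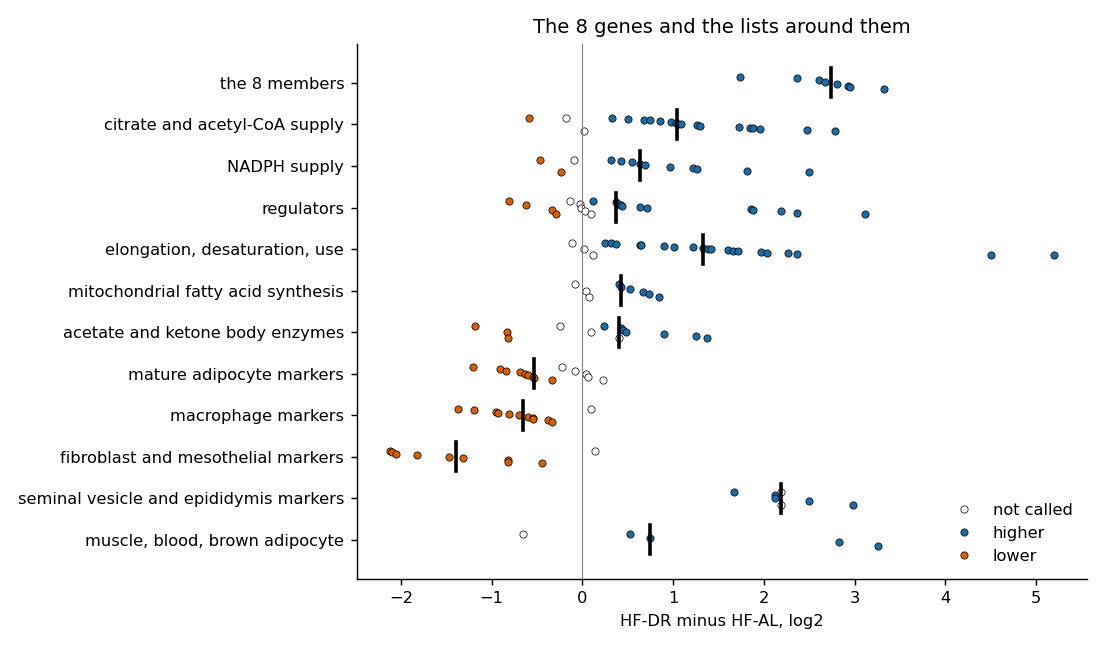
Difference between HF-DR and HF-AL (horizontal axis, log2) of each measured gene, by list; filled blue points were called higher, filled orange points lower and open points were not called, and the vertical bar is the list's median. The 8 genes lie between 1.74 and 3.32, and the marker lists of adipocytes, macrophages and fibroblasts have medians below 0.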

How the data were processed

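The deposited data are 36 files of scanner output, 1 for each 2-colour Agilent mouse array, made with Feature Extraction (version 9.5.3.1 in the submitters' processing notes), and a matrix of values per probe. Per the file headers the intensity values used are each channel's mean signal and local background, not normalised; the deposited matrix holds log2 values that follow Cy5 (r at least 0.989), and how they were calculated is not stated in those sources. Probe coordinates are on mm8 per the file headers; exon annotation on that build was not used here.

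Background was corrected with normexp (offset 50, fitted without specks, spots with a net signal under -50), ratios were normalised by loess within arrays (4 iterations), and spots flagged as outliers were left out while saturated spots were kept. A probe passed if its Cy5 signal exceeded background (the software's own flag) on 9 or more arrays of some group, and the brightest passing probe stood for a gene. One limma 3.58.1 fit (R 4.3.3, version 1.17.8 of data.table) over 36 arrays with 3 group means gave two-sided tests with Benjamini-Hochberg adjustment over all 16497 genes. Pairs and correlations used permutation tests over arrays (1e+05 resamples). The mice were separate animals, so the p-values measure the spread between animals, all hybridised in 1 dye orientation. The procedure was tested on simulated data.

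The members and lists were chosen with earlier results of these data known. Named by rule were all members with their probes, and per pathway list the 4 genes of lowest adjusted p and at most 1 called gene of the other direction. The rule also named per marker list the 3 brightest, and the 5 genes most like the members' mean. Genes named outside the rule are Pgd, G6pdx, Idh1, Nnt, Me3, Oxsm, Mecr, Acsf3, Srebf1, Srebf2, Insig2, Prkaa2, Prkab1, Prkab2, Prkag1 and Ucp1. One gene that the rule names is not reported here. The alternatives changed the signal, normalization, filter, probe rule, blocks and arrays left out.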

Additional observations from a re-analysis of the deposited data

How the results depend on the processing

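Over 15 alternatives and 3 comparisons, all 360 values of single members kept their direction or stayed uncalled, and the members called remained 8, 8 and 0. The largest adjusted p of a member between HF-DR and HF-AL was 6.19e-08 (Fasn, limma). The scaled ratios, the quantile-normalised Cy5 levels and the runs without HF-DR 8 and 9 were chosen after seeing the data, as was leaving the tract arrays out of the correlations, the lists and the search for similar genes. The number called between HF-AL and t0 (115 genes) moved to 211 with processed signals. It was 71 without a filter and 73 with probes above background on all arrays. Without tract arrays it was 245, with scaled ratios 513 and with quantile-normalised Cy5 levels 75, and the cause of these shifts was not tested. Without HF-DR 8 and 9 it was 429. Those arrays belong to neither group, so both means stayed the same and only the spread estimate shared by the 3 groups changed. The series matrix split the calls between HF-DR and HF-AL into 5169 higher and 4644 lower, 52.7% higher against 44.5%.

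The ratio of Acacb to Acaca lost its call with normexp fitted on all spots (-0.22), in the series matrix (-0.20), without tract arrays (-0.17) and without HF-DR 8 and 9 (-0.23). With the mean over the probes of a gene, which takes in dim probes, Acly over Slc25a1 reversed to -0.32 and Aacs over Acss2 to 0.01. Pairs of members whose correlation passed went from 22 to 11 in HF-AL and from 15 to 3 in HF-DR without tract arrays.

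The replicate number was not taken to pair the mice, since not every same-numbered pair of arrays had r over 0.1. That rule does not show that the mice were unpaired. The r was over 0.1 in 9 of 12 pairs of HF-AL with HF-DR (-0.14 to 0.40) and in 2 of 24 pairs with t0 (-0.46 to 0.29), and 3 arrays correlated best with their own number. With the replicate block 10645, 10212 and 126 genes were called in the 3 comparisons, and 8, 8 and 0 members, against 10681, 10189 and 115 genes without it. With the slide block the members called were the same in number. The permutation tests on pairs of genes were run with neither block. Saturation limits the size for Fasn, and low signal limits the sizes of dim probes.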
